A study of Homo sapiens with 6 samples.

Results

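The hepatocyte transcription factors described here are 8 genes, HNF4A, HNF4G, FOXA1, FOXA2, FOXA3, CEBPA, ONECUT1 and PROX1, taken by gene symbol from the 16305 different genes in the expression tables of the series. All 8 were in the tables, so all 8 had passed the filter on low reads that was applied before deposit. The cells were a pool of Huh7, a human hepatocellular carcinoma line, that had been made resistant to sorafenib, a multikinase inhibitor used in liver cancer, and was taken off sorafenib before the experiments. The compared groups were 3 samples given DMSO, the solvent control, and 3 samples given fostamatinib, the prodrug of a SYK kinase inhibitor, at 2 µM for 24 hours. The labels write the same concentration for DMSO. Every sample of both groups carries the acquired resistance, and the resistant pool comes from a single cell line. No source used here says whether the 3 samples of a group were separate cultures, so p-values measure only the spread between these samples, which may be technical.

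Hepatocyte identity is held by a small network of DNA-binding proteins that regulate each other and share binding sites near the genes for plasma proteins, lipid carriers and metabolic enzymes. HNF4A is a nuclear receptor at the centre of this network. The FOXA proteins open chromatin at liver enhancers, CEBPA belongs to the leucine zipper factors of the mature hepatocyte, and ONECUT1 and PROX1 are homeodomain proteins that act from early liver development onward.

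The libraries held 13303451 to 15272737 reads on the kept genes. Levels are given as log2 CPM (reads relative to the size of the library, scaled by the authors' factors and on the log2 scale), which compares 1 gene between samples. Levels of different genes are compared only as TPM, for which reads are divided by gene length and set relative to the sum over all genes. Differences are log2 fold changes, fostamatinib minus DMSO, from limma with Benjamini-Hochberg adjusted p over all genes, and a gene is called to have changed where that p is under 0.05. The limma p draws on the spread of other genes in the same samples, not on that of the gene alone. An exact permutation test of 3 samples against 3 cannot give a p below 0.1, which 7 of the 8 genes reached.

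Among the 8 factors, 4 rose with fostamatinib (CEBPA, ONECUT1, FOXA3 and HNF4A), 2 fell (HNF4G and PROX1), and FOXA1 and FOXA2 did not pass the test. That is 6 of 8 called, where 47.8% of all genes were called. Each of the 4 that rose was past 2-fold, where 3.85% of all genes were called higher and past 2-fold and 7.13% were called and past 2-fold in either direction. A stricter limma test, treat, asks whether a change is larger than 2-fold, and CEBPA and FOXA3 passed it, as did 1.81% of all genes. The groups did not overlap for 7 of the 8, against 54.1% of all genes. The median log2 fold change of the 8 was 0.58, beside 0.0015 over all genes.

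The promoter sequences of HNF4A, FOXA3 and CEBPA are shown because these genes rose together and had the most reads among the factors that rose. They are the 250 bases before the transcription start on the gene's own strand, 5′ to 3′, from RefSeq on GRCh38.p14. HNF4A has an upstream start, known as P2, and a downstream start, known as P1, and the expression tables do not separate transcripts from these starts. The windows are chr20:44355449-44355698 for P2 and chr20:44400989-44401238 for P1, both on the plus strand. The FOXA3 window is chr19:45864076-45864325 on the plus strand, and that of CEBPA is chr19:33302535-33302784 on the minus strand. Capitals mark matches to any of the searched letters, on either strand.
HNF4A P2: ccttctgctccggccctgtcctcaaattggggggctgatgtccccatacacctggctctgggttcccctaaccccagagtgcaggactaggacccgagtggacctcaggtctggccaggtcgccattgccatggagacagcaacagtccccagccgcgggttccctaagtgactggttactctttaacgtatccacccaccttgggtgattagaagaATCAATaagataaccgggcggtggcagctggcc
HNF4A P1: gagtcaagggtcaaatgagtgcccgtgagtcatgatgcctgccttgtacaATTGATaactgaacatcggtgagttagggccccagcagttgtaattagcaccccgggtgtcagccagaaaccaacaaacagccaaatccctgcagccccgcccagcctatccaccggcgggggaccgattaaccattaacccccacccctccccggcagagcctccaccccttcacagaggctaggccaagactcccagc
FOXA3: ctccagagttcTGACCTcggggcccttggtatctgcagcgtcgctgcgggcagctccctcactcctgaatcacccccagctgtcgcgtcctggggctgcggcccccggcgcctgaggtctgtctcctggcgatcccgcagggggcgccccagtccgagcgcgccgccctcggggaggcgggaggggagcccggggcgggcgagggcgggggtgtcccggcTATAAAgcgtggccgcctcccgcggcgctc
CEBPA: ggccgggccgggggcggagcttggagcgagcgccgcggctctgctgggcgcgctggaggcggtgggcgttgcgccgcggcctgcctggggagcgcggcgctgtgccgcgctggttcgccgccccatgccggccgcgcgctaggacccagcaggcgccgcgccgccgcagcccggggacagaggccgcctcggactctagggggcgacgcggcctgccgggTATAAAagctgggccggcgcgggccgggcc

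The letters searched were ATTGAT (bound by ONECUT proteins), AGGTCA (the core of nuclear receptor sites), CAAAGTC (HNF4), TGTTTAC and TGTTTGC (forkhead proteins), TTGCNNAA (C/EBP proteins) and TATAAA (the TATA box). They were chosen with these promoters in view. The P2 window of HNF4A held ATTGAT on the opposite strand, at 33 to 28 bases before the start. Its P1 window held ATTGAT at 200 to 195 bases. ATTGAT was found in 5.58% of the 35116 promoters of this length.

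The FOXA3 window held AGGTCA on the opposite strand at 239 to 234 bases and TATAAA at 30 to 25 bases before the start. The CEBPA window held TATAAA at the same place. Of all promoters, 12.1% held AGGTCA and 10.7% held TATAAA. FOXA1, a member with an entry whose sequence is not shown, held TGTTTGC on the opposite strand at 235 to 229 bases, as did 3.23% of all promoters, and the ONECUT1 window held none of the letters. The letters given for HNF4, the TGTTTAC form and the letters given for C/EBP proteins were in none of these windows. They were in 2.91%, 2.98% and 9.05% of all promoters, in that order. No matches overlapped. The base composition of the windows differed, with 58.4% G or C for P2, 58.0% for P1, 75.2% for FOXA3 and 81.2% for CEBPA, beside a median of 58.0% over all promoters. The promoter table used here had no entry for FOXA2, HNF4G or PROX1.

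HNF4A, the nuclear receptor whose loss disables most liver-specific expression in hepatocytes, about doubled. The gene (ENSG00000101076) lies on chr20:42984339-43061485 of GRCh37, plus strand. The DMSO samples had 7.22, 7.25 and 7.23 log2 CPM, from 2055, 2315 and 2225 reads. The fostamatinib samples had 8.25, 8.25 and 8.26 log2 CPM, from 4194, 4333 and 4051 reads. Every fostamatinib sample lay far above every DMSO sample, and the spread within groups was the narrowest of the 8 factors. The mean went from 7.23 ± 0.013 to 8.25 ± 0.0040 log2 CPM (SD, n = 3 in each group). The log2 fold change was 1.02 (SE 0.039, 95% interval 0.94 to 1.10), or 2.03-fold, with a limma adjusted p of 8.40e-22.

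HNF4G, a close relative that binds much the same DNA sequence, moved the other way. It (ENSG00000164749) lies on chr8:76320149-76479069, plus strand. Its levels were 3.77, 3.57 and 3.95 log2 CPM in DMSO, from 187, 181 and 229 reads. In fostamatinib they were 3.11, 3.02 and 2.99 log2 CPM, from 118, 115 and 105 reads. All 3 fostamatinib samples were below the lowest DMSO sample. HNF4G fell by 0.72 on the log2 scale (SE 0.11, 95% interval -0.95 to -0.49), with a limma adjusted p of 1.57e-06.

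Within each library, HNF4A therefore took a larger part of the sum of both HNF4 genes. Per length, HNF4A made up 83.9 ± 1.85% of their TPM in DMSO and 94.6 ± 0.217% in fostamatinib (SD, n = 3). The sum itself went from 61.9 to 105 TPM. The log2 difference between HNF4A and HNF4G grew by 1.74 with no overlap between groups (exact permutation p = 0.1, the smallest possible, and 0.114 adjusted over the 8 gene pairs compared).

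**Figure D1:**
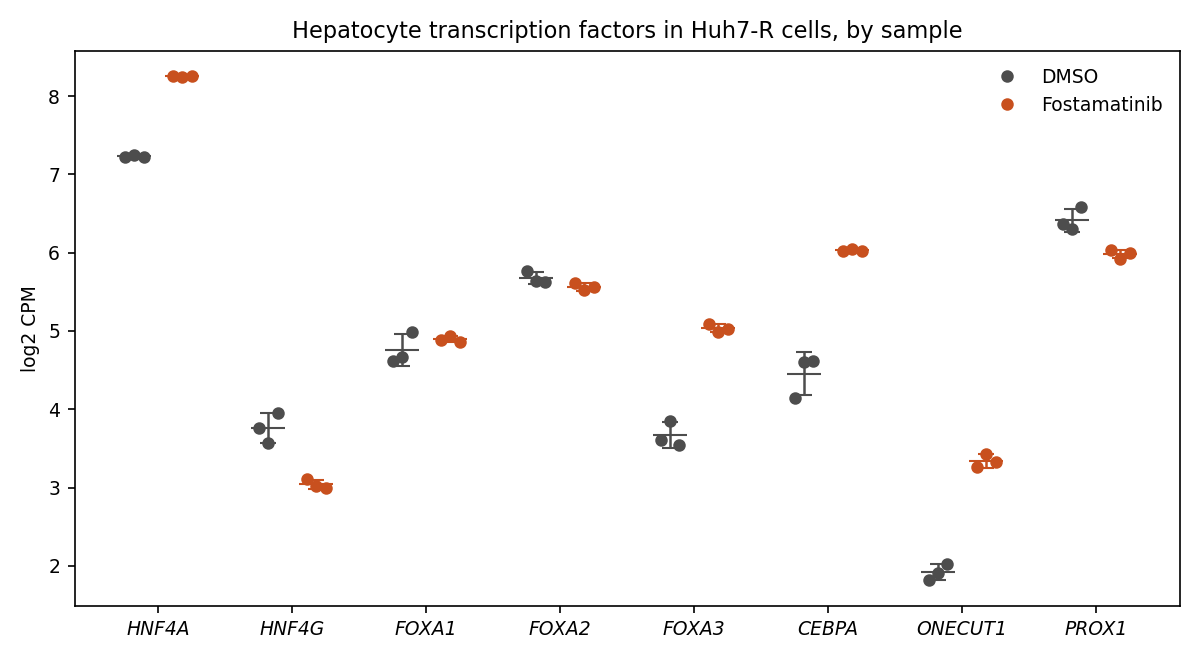
Level of each of the 8 hepatocyte transcription factors in log2 CPM (y axis) in the 3 DMSO and the 3 fostamatinib samples, each point 1 sample, with the mean and SD of each group as lines. The groups stand apart for every gene except FOXA1, with fostamatinib above DMSO for HNF4A, FOXA3, CEBPA and ONECUT1 and below it for HNF4G, FOXA2 and PROX1.

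The 3 FOXA genes, forkhead factors that can bind nucleosomal DNA and keep liver enhancers accessible, differed in their response, and only FOXA3 among them passed the test. FOXA3 (ENSG00000170608) lies on chr19:46367247-46377055, plus strand. It had 3.61, 3.85 and 3.55 log2 CPM in DMSO, from 168, 220 and 173 reads. It had 5.09, 4.99 and 5.03 log2 CPM in fostamatinib, from 469, 451 and 431 reads. The gap between the groups was several times the spread within either. FOXA3 rose by a log2 fold change of 1.36 (SE 0.086, 95% interval 1.19 to 1.54), or 2.57-fold, with a limma adjusted p of 1.18e-15.

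FOXA1 (ENSG00000129514, chr14:38058757-38065264, minus strand) had 4.61, 4.67 and 4.99 log2 CPM in DMSO, from 337, 388 and 471 reads. In fostamatinib it had 4.89, 4.93 and 4.86 log2 CPM, from 407, 435 and 384 reads. DMSO replicate 3 lay above all fostamatinib samples and the other two DMSO samples lay below them. The log2 fold change was 0.14 (SE 0.080, 95% interval -0.03 to 0.30, limma adjusted p = 0.164). Without DMSO replicate 3 it was 0.25, with a limma adjusted p of 0.00486, so the call for FOXA1 depended on this library.

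FOXA2 (ENSG00000125798, chr20:22561636-22566093, minus strand), which acts with FOXA1 in the onset of liver development, had 5.77, 5.64 and 5.63 log2 CPM in DMSO. The reads were 749, 762 and 734. In fostamatinib it had 5.61, 5.52 and 5.56 log2 CPM from 672, 653 and 623 reads. The groups did not overlap but came within a small distance of each other. The log2 fold change was -0.12 (SE 0.059, 95% interval -0.24 to 0.00) and did not pass, with a limma adjusted p of 0.105.

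Relative to its relatives in the same library, FOXA3 gained. Its log2 level rose by 1.23 more than that of FOXA1 and by 1.48 more than that of FOXA2, each without overlap (exact permutation p = 0.1, adjusted 0.114). FOXA1 against FOXA2 shifted by 0.25 with overlapping groups (exact permutation p = 0.3). Per length, FOXA3 made up 19.3 ± 2.26% of the FOXA sum in DMSO and 39.0 ± 0.448% in fostamatinib. FOXA2 made up 60.8 ± 2.76% and 43.97 ± 0.318%, and FOXA1 made up 19.9 ± 2.99% and 17.0 ± 0.751% (SD, n = 3). FOXA2 stayed the most abundant of the 3 per length in every sample, with FOXA3 close behind it in fostamatinib.

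CEBPA, a leucine zipper factor that drives metabolic genes and restrains the cell cycle in hepatocytes, had the largest log2 fold change of the 8. It (ENSG00000245848) lies on chr19:33790840-33793440, minus strand. The DMSO samples had 4.14, 4.60 and 4.62 log2 CPM, from 242, 370 and 365 reads. The fostamatinib samples had 6.02, 6.05 and 6.02 log2 CPM, from 891, 945 and 861 reads. DMSO replicate 1 was lower than the other two, and all fostamatinib samples were above all DMSO samples. CEBPA rose by a log2 fold change of 1.58 (SE 0.082, 95% interval 1.41 to 1.74), or 2.99-fold, with a limma adjusted p of 7.19e-18. Leaving out 1 sample at a time gave log2 fold changes of 1.42 to 1.66.

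The other C/EBP genes examined went down. CEBPB and CEBPD, which are induced in the acute-phase response, fell by 0.83 (SE 0.053) and 1.74 (SE 0.062) on the log2 scale, and CEBPG, a dimer partner, fell by 0.75 (SE 0.049). All 3 passed the limma test. Per length, CEBPA rose from 5.70 ± 1.07% to 28.0 ± 0.406% of the sum of these 4 genes, while CEBPD went from 38.9 ± 0.134% to 19.3 ± 0.447% (SD, n = 3). The sum went from 526 to 298 TPM. The log2 difference from CEBPA to CEBPB, CEBPD and CEBPG grew by 2.41, 3.32 and 2.32, each without overlap (exact permutation p = 0.1, adjusted 0.114). These 3 pairs, and the ONECUT pair described next, were added after their values had been seen.

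ONECUT1, also called HNF6, is a homeodomain factor of developing liver, bile duct and pancreas. The gene (ENSG00000169856, chr15:53047250-53083275, minus strand) had the fewest reads of the 8 in DMSO. Its DMSO levels were 1.82, 1.91 and 2.03 log2 CPM, from 48, 57 and 60 reads. In fostamatinib they were 3.26, 3.43 and 3.32 log2 CPM, from 131, 153 and 132 reads. The groups were well apart despite the low reads. ONECUT1 rose by a log2 fold change of 1.42 (SE 0.14, 95% interval 1.14 to 1.70), or 2.67-fold, with a limma adjusted p of 1.05e-10. Its relative ONECUT2 fell by 0.64 on the log2 scale (SE 0.090), and the log2 difference between them grew by 2.06 without overlap (exact permutation p = 0.1, adjusted 0.114). ONECUT1 went from 29.8 ± 1.55% to 64.1 ± 0.553% of the TPM of both (SD, n = 3).

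PROX1, a homeodomain protein required for hepatoblasts to spread out of the liver bud and known to bind HNF4A and NR5A2 as a corepressor, fell. The gene (ENSG00000117707) lies on chr1:214156524-214214853, plus strand. The DMSO samples had 6.37, 6.30 and 6.58 log2 CPM, from 1137, 1201 and 1418 reads. The fostamatinib samples had 6.03, 5.92 and 5.997 log2 CPM, from 897, 862 and 846 reads. Every fostamatinib sample was below every DMSO sample, and DMSO replicate 3 was the highest. PROX1 fell by 0.43 on the log2 scale (SE 0.059, 95% interval -0.55 to -0.31), with a limma adjusted p of 1.22e-07.

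**Figure D2:**
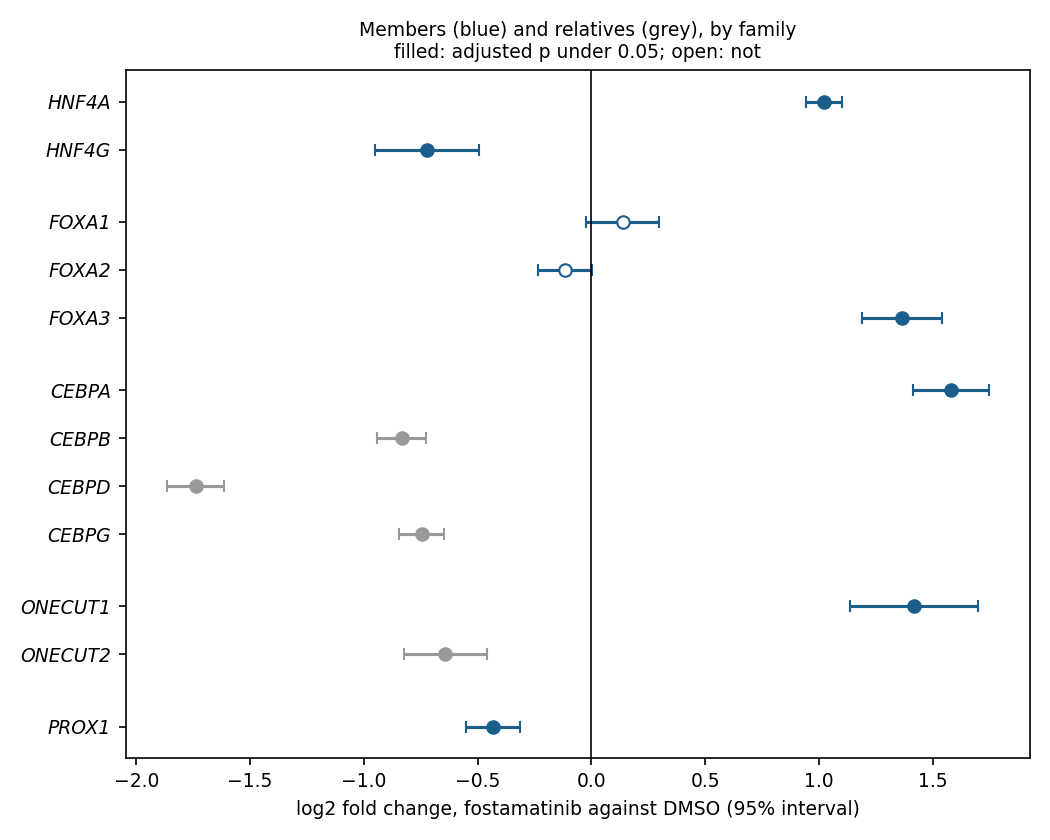
Log2 fold change, fostamatinib minus DMSO (x axis), of the 8 factors (blue) and of 4 relatives (grey) with the 95% interval from limma, filled where the adjusted p is under 0.05. CEBPA (1.58), ONECUT1 (1.42), FOXA3 (1.36) and HNF4A (1.02) lie above 0, HNF4G (-0.72) and PROX1 (-0.43) lie below it, and the intervals of FOXA1 and FOXA2 reach it.

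Per length, the order of the 8 levels in DMSO ran from FOXA2 (66.3 ± 4.24 TPM) and HNF4A (51.9 ± 0.321 TPM) through PROX1 (33.8 ± 3.72 TPM), CEBPA (29.9 ± 5.09 TPM), FOXA1 (21.7 ± 3.20 TPM) and FOXA3 (21.1 ± 2.13 TPM) to HNF4G (9.99 ± 1.40 TPM) and ONECUT1 (2.16 ± 0.158 TPM). PROX1 and CEBPA overlapped between samples, as did CEBPA and FOXA1, and FOXA1 and FOXA3. In fostamatinib the order was HNF4A (99.5 ± 0.975 TPM), CEBPA (83.4 ± 1.71 TPM), FOXA2 (57.6 ± 1.34 TPM), FOXA3 (51.1 ± 1.46 TPM), PROX1 (23.6 ± 0.745 TPM), FOXA1 (22.3 ± 0.665 TPM), HNF4G (5.66 ± 0.185 TPM) and ONECUT1 (5.47 ± 0.378 TPM), each mean ± SD of 3 samples. There PROX1 overlapped with FOXA1 and HNF4G overlapped with ONECUT1. CEBPA thus moved from the middle of the order to just below HNF4A.

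These levels rest on the summed length of all annotated exons of a gene. With the length of its longest transcript instead, HNF4A (84.7 TPM) stood above FOXA2 (53.9 TPM) in DMSO. In fostamatinib FOXA1 (21.7 TPM) then stood above PROX1 (19.1 TPM), and ONECUT1 (5.94 TPM) above HNF4G (5.005 TPM). HNF4A and CEBPA were the top of the order in fostamatinib with either length. The family shares and sums depend on the length as well. With the longest transcript HNF4A made up 90.7% of its family in DMSO and 97.1% in fostamatinib. FOXA3 made up 19.2% and 38.6%, CEBPA 5.64% and 27.7%, and ONECUT1 37.2% and 71.3%. The HNF4 sum then went from 93.3 to 170 TPM and the C/EBP sum from 403 to 233 TPM.

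**Figure D3:**
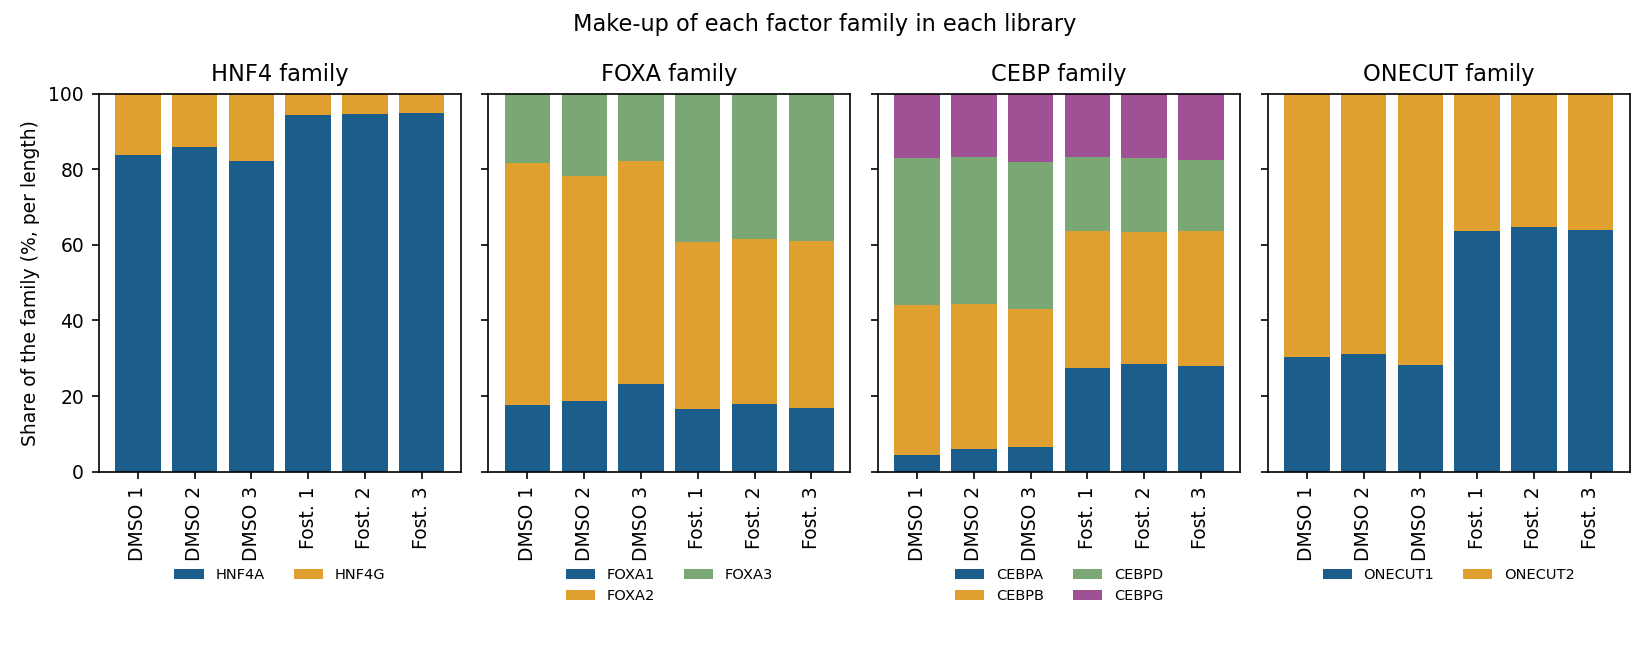
Share of each family's summed TPM (y axis, percent) held by each gene of the HNF4, FOXA, C/EBP and ONECUT families, with 1 stacked bar for each of the 6 samples. From DMSO to fostamatinib HNF4A goes from 83.9% to 94.6%, FOXA3 from 19.3% to 39.0%, CEBPA from 5.70% to 28.0% and ONECUT1 from 29.8% to 64.1% of its family.

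The genes next to the 8 factors did not share 1 direction. LINC00261, a long non-coding RNA gene 2356 bases from FOXA2 on the same strand, had 821, 900 and 970 reads in DMSO and 575, 643 and 513 in fostamatinib. It fell by 0.55 on the log2 scale (SE 0.062, limma adjusted p = 2.85e-09), while FOXA2 itself had -0.12. SYMPK, which encodes a protein of mRNA 3′ end formation and starts 795 bases from FOXA3 on the opposite strand, rose by 0.34 (SE 0.042), beside 1.36 for FOXA3. CEBPA-AS1, 323 bases from CEBPA on the opposite strand, had only 32, 32 and 13 reads in DMSO and 35, 34 and 38 in fostamatinib, and a log2 fold change of 0.66 (SE 0.28, limma adjusted p = 0.0453).

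PROX1 and FOXA1 overlap genes on the opposite strand that were also measured. PROX1-AS1 had 45, 45 and 46 reads in DMSO and 44, 51 and 65 in fostamatinib, with overlapping groups and a limma adjusted p of 0.196. TTC6, which overlaps FOXA1, had a log2 fold change of -0.04 (limma adjusted p = 0.912). Whether the reads were counted by strand is not given in the sources used here, so reads from these partners could not be told apart from those of PROX1 and FOXA1, although both partners had far fewer reads. HNF4A and CEBPA also overlap antisense genes that were not analysed here. Stretches of 50 bases shared with other genes were 0% of the exon sequence of FOXA1, FOXA2, FOXA3, CEBPA, ONECUT1 and PROX1, 1.05% of that of HNF4A and 0.477% of that of HNF4G.

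The lists of the wider network held both rises and falls. Over all genes, 23.3% were called higher and 24.5% lower, and the counts of each list are read beside these shares. Of 20 other liver-enriched transcription factors, 11 rose and 5 fell, with a median log2 fold change of 0.30. These 5 falls are about the share of all genes called lower. The largest rises were those of CREB3L3 (1.58), a membrane-bound factor of lipid and acute-phase genes, TBX3 (1.499) and NR5A2 (0.99), a receptor of bile acid genes, and the 3 largest falls that passed the test were those of the C/EBP genes given above.

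Of 15 liver nuclear receptors and partners measured, 9 rose and 4 fell, with a median of 0.45. The 4 that fell are a share near the 24.5% of all genes called lower. Among the rises were NR2F2 (1.15), THRB (0.94), the thyroid hormone receptor beta, and PPARA (0.89), the receptor that drives fatty acid oxidation. RORA (-2.24) and NR1H4 (-1.36), the bile acid receptor, were among the falls. Of 15 coregulators, 7 rose and 3 fell, with a median of 0.11, where 23.3% of all genes were called higher and 24.5% lower. Their 3 falls are thus not above the share of all genes. Against these 10 calls, 6 coregulators were called without fostamatinib replicate 3 (4 higher and 2 lower), 6 without the mean-variance trend and 3 at a p allowing 1 expected false positive among all genes. PPARGC1A, a coactivator of HNF4A in the fasting response, rose by 0.92, and its relative PPARGC1B fell by 1.07 on the log2 scale.

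Of 42 classical hepatocyte target genes listed, 30 were in the tables, and 23 of these rose while 2 fell, with a median log2 fold change of 0.69. Over all genes 23.3% were called higher. APOA4 (4.62) and APOA1 (3.19), which encode apolipoproteins, and CPS1 (3.64), the entry enzyme of the urea cycle, had the largest rises. All began from few reads in DMSO: 6, 3 and 4 for APOA4, 20, 22 and 23 for APOA1, and 26, 40 and 22 for CPS1. APOA4 passed the filter on low reads only through fostamatinib, so the size of its rise is uncertain. Where the filter had to be passed in both groups, 26 target genes remained, of which 19 rose and 2 fell. CLDN1 (-1.29), a tight junction gene, and HP (-0.91), which encodes the acute-phase protein haptoglobin, fell.

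**Figure D4:**
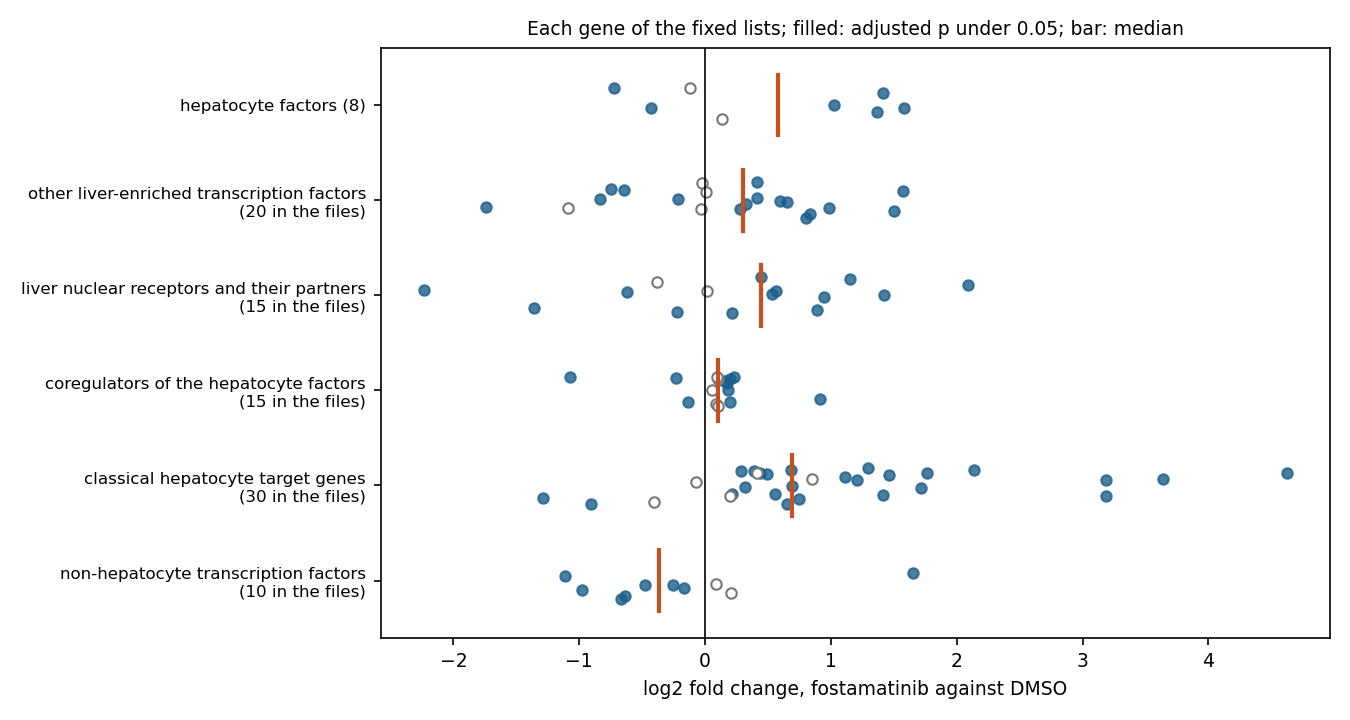
Log2 fold changes, fostamatinib minus DMSO, of the 8 factors and of the genes of the 5 other lists, each point 1 gene, filled where the limma adjusted p is under 0.05, with the median of each list as a bar. The medians are 0.58 for the 8 factors, 0.69 for the target genes, 0.45 for the nuclear receptors, 0.30 for the other liver factors, 0.11 for the coregulators and -0.37 for the non-hepatocyte factors.

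Markers of the labelled cell type were present throughout. All 9 hepatocyte and hepatoma markers rose, by log2 fold changes of 0.21 to 3.19, where 23.3% of all genes were called higher. Among them ALB, AFP, APOA1, APOB, TTR, SERPINA1, TF and FGB are also target genes, so their rise was already counted above. The summed level of the 9 markers was 5029 to 5371 CPM in DMSO and 6739 to 7165 CPM in fostamatinib. Of 7 endothelial markers only PECAM1 was in the tables (6.13 to 6.96 CPM in DMSO, 8.76 to 9.93 CPM in fostamatinib), and of 8 leukocyte markers 2 were, neither of them called, and PTPRC, CD3E and CD68 were not in the tables. The share of reads on mitochondrial genes was 6.15 to 6.67% in DMSO and 8.16 to 8.40% in fostamatinib, so it moved with the groups, and its part in the values of the 8 factors was not tested. Reads on ribosomal protein genes took 3.60 to 3.77% and 3.44 to 3.69%. In bulk samples such as these, more RNA per cell and more cells with the RNA cannot be told apart.

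The genes whose levels ran closest to HNF4A over the 6 samples, among 11719 genes compared by the root mean square difference of their log2 levels from the DMSO mean, were ERBB3 (0.0407), PLA2G16 (0.0454) and CGN (0.0483). Their log2 fold changes were 1.06, 1.04 and 0.996. The measure covers both groups, so genes that are close by it have like log2 fold changes by construction. For CEBPA the closest were KIAA1161 (0.114), TJP3 (0.116) and SEMA4G (0.125), with log2 fold changes of 1.46, 1.54 and 1.54.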

How the data were processed

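RNA sequencing libraries (poly(A), directional kit) of sorafenib-resistant Huh7 cells, 3 with DMSO and 3 with fostamatinib, were analysed. Per the paper's methods and the submitters' processing notes, the authors used HISAT for mapping to hg19 and featureCounts for reads per GENCODE gene, removed genes with low reads and scaled by TMM. The values the authors deposited are log2 CPM per gene and sample. Each file had 16311 rows and 16305 different genes, since 7 rows belonged to 1 gene and were identical.

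Whole reads were recovered from the log2 CPM with an offset of 0.5 (100% of values within 0.05 of a whole number). Depth was 13303451 to 15272737 reads on kept genes, and precision is limited by these reads and by n = 3. The log2 CPM entered a linear model in limma 3.58.1 under R 4.3.3 (lmFit, eBayes with a mean-variance trend), with Benjamini-Hochberg adjustment over all genes and a threshold of 0.05. The script was tested on simulated data. Gene positions and lengths came from GENCODE 44 mapped to GRCh37, which held 98.7% of the gene identifiers. Promoters came from RefSeq and 5 of the 8 members matched. Paralogs were compared within libraries by two-sided exact permutation tests.

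The 8 members, the 5 other lists and the marker lists were chosen with earlier results of these data known. All members were named, and from each list the 3 largest called changes in each direction where the higher of the group means reached 50 reads. Genes within 5 kb of a member counted as neighbours. Alternatives covered the variance model, scaling, filters, thresholds, the replicate block and each left-out sample. A few genes of the lists are counted but not reported by name here. Samples with the same replicate number were compared for shared deviations.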

Additional observations from a re-analysis of the deposited data

How the results depend on the processing

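Each of the 8 factors was examined under 15 alternatives. Those on the mean-variance trend, the filters, the thresholds, treat and the replicate block left its log2 fold change unchanged. Direction could change only under a weighted fit of the recovered reads, other scaling or a left-out sample, and it did not. The test against a 2-fold change by treat gave the fewest calls: 2 of the factors (CEBPA and FOXA3, against 6), 3 of the other liver factors, 2 nuclear receptors, 0 coregulators, 8 target genes, 1 non-hepatocyte factor and 295 of all genes, since it asks for a larger effect. HNF4A (1.02), ONECUT1 (1.42), HNF4G (-0.72) and PROX1 (-0.43) lost their calls there. A p allowing 1 expected false positive among all genes called 4136 genes, against 7794, and 3 coregulators, against 10. Without a mean-variance trend 6 coregulators were called, and the limma adjusted p of the 6 called factors was at most 0.0142 (PROX1). That of HNF4A was then 1.83e-04, against 8.40e-22 with the trend, and that of CEBPA 0.00128, against 7.19e-18. The very small p-values thus depended on the variance model. Leaving out 1 sample at a time gave 6 to 7 factors, 15 to 17 other liver factors, 12 to 14 nuclear receptors, 6 to 10 coregulators (6 without fostamatinib replicate 3), 25 to 27 target genes, 8 non-hepatocyte factors and 6958 to 7480 genes. FOXA1 gained its call without DMSO replicate 3 (0.25). The cause was not tested.

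The same replicate numbers did not pair the samples: the deviations of same-numbered samples correlated by 0.0365, -0.0213 and 0.0371, and 2 of 6 samples correlated best with their own number. With the replicate block, 6 factors and 7977 genes were called. The fewest reads behind a factor were the 48 of ONECUT1 in a DMSO sample. Its SE was 0.14 with the mean-variance trend, the largest of the 8, and 0.078 without it.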

Other observations

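Most of the measured genes in a list of non-hepatocyte transcription factors fell. The list does not stand for other lineages alone, since it also holds MYC, TEAD4 and ZEB2. SOX17, CDX1 and PDX1 were among the listed genes that were not in the tables. Of 16 listed, 10 were in the tables, and 1 rose and 7 fell, with a median log2 fold change of -0.37. Over all genes 23.3% were called higher and 24.5% lower. CDX2, an intestinal homeodomain factor, rose by a log2 fold change of 1.65. TEAD4 (-1.11), a partner of YAP, KLF4 (-0.98) and ZEB2 (-0.67), a repressor of epithelial genes, fell.

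Of 7 biliary and progenitor markers, 2 rose and 3 fell, beside the same shares of all genes, and their summed level was 461 to 476 CPM in DMSO and 422 to 430 CPM in fostamatinib. Of 8 stellate and fibroblast markers, 5 were in the tables, 2 rose and 1 fell, with summed levels of 297 to 306 CPM and 308 to 312 CPM.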
